A study of Mus musculus with 12 samples.

Results

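Ltf, Lcn2, Slpi, Muc1, Padi1 and Wfdc2 are 6 genes grouped here as estrogen-induced secreted defence proteins. They were picked by gene symbol, with earlier results of these data known, out of 35896 genes in the deposited tables, and all 6 were found and were retained by the filter on low counts. The samples were whole uteri of wild-type female Swiss Webster mice, an outbred stock, aged 8 to 12 weeks. Each mouse had been assigned to a stage of the estrous cycle, and there were 3 uteri in proestrus (replicates 1, 2 and 3), 3 in estrus (3, 4 and 5), 3 in metestrus (5, 6 and 7) and 3 in diestrus (3, 4 and 5). No group received a treatment or carried an engineered allele, and the labels used here did not say how a stage was determined. Polyadenylated RNA was measured by 3' TagSeq, in which reads come from the 3' ends of transcripts. Levels are given as CPM, the estimated counts of a gene scaled to the size of the library with TMM factors.

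As background, the epithelium that lines the mouse uterus and its glands secretes antimicrobial and protective proteins under the control of ovarian steroids. Circulating estradiol peaks in proestrus in the mouse, and estrogen given to ovariectomised mice is known to induce lactoferrin strongly in the uterine epithelium. Progesterone, which is higher in diestrus, opposes many of the actions of estrogen on that epithelium. Not all 6 proteins are secreted: Muc1 encodes a mucin anchored in the apical membrane, and Padi1 encodes a peptidylarginine deiminase, an enzyme that converts arginine in proteins to citrulline inside cells. Ltf encodes lactoferrin, which binds iron, and Lcn2 encodes lipocalin 2, which binds the siderophores with which bacteria collect iron. Slpi encodes secretory leukocyte peptidase inhibitor, and Wfdc2 encodes a related small protein of the whey acidic protein family.

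The genes lie on 4 chromosomes of the mouse genome (GRCm38, GENCODE M21 models). Ltf (ENSMUSG00000032496) runs from 111019271 to 111042767 on chromosome 9, plus strand. Lcn2 (ENSMUSG00000026822) runs from 32384633 to 32388252 on chromosome 2, minus strand. Slpi (ENSMUSG00000017002, minus strand, 164354070 to 164389095) and Wfdc2 (ENSMUSG00000017723, plus strand, 164562413 to 164568510) lie on chromosome 2 as well, with 173317 bp between their models. Muc1 (ENSMUSG00000042784) lies at 89229057 to 89233381 on chromosome 3, plus strand. Padi1 (ENSMUSG00000025329) lies at 140812983 to 140845778 on chromosome 4, minus strand. An exon of Padi1 overlaps an exon of Gm13032 on the opposite strand and 1.02% of its 31-base words also occur in Padi3 or Padi4, so a few of its reads could belong to another gene. The other 5 genes shared no 31-base word with any other gene among the annotated transcripts in the deposited tables. The microRNA gene Mir7678, which was not among them, overlaps an exon of Slpi on the same strand.

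The sequence before the RefSeq start site was read for each gene. The reason was that Ltf, Lcn2 and Muc1 moved together between uteri of the same stage, as given further on. Slpi, which had few counts, did not move with them. The stretches of those 4 genes that lie outside annotated exons, within 250 bases of the start, are printed 5′ to 3′ on the strand of the gene (RefSeq, GRCm38.p6). Capitals mark matches to the motifs searched. They are chr9:111019042-111019270 (plus strand) for Ltf, chr2:32387798-32387850 (minus) for Lcn2, chr3:89228806-89229055 (plus) for Muc1 and chr2:164356508-164356757 (minus) for Slpi. The Slpi window lies inside the span of the longest GENCODE model of that gene.
Ltf: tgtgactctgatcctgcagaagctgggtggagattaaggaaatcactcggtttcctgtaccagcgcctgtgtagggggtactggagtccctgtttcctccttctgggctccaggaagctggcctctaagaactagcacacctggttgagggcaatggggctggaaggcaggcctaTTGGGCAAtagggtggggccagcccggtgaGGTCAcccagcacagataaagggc
Lcn2: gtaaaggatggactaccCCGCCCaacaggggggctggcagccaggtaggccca
Muc1: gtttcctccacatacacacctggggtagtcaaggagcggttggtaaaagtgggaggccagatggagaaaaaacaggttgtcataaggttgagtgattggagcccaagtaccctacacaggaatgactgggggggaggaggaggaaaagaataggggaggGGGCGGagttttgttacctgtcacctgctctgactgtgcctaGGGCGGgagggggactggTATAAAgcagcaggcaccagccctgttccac
Slpi: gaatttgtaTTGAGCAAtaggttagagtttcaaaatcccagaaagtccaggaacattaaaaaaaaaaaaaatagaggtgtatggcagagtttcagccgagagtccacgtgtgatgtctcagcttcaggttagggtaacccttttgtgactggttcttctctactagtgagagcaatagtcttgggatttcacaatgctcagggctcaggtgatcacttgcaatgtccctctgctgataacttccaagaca

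None of the 6 genes had the full palindromic estrogen response element, GGTCANNNTGACC, in this window, and 0.0639% of the 32851 RefSeq windows of that length did (both strands searched throughout). A single arm of the element, GGTCA, stood 45 to 41 bases before the start of Ltf, and in 1 of the 2 windows of Wfdc2 at 5 to 1 bases before it. That short motif occurred in 35.2% of all windows. The extended form TCAAGGTCA, which contains the single arm, occurred in 0.387% of windows and in none of the 6 genes. The C/EBP-like motif TTGCNNAA was present at -75 to -68 in Ltf, -216 to -209 in Lcn2 and -241 to -234 in Slpi, against 9.56% of all windows, and the Lcn2 match lies in an annotated exon and is not printed. The GC box GGGCGG was present in Lcn2, at 2 places in Muc1 and in Wfdc2 (32.7% of windows), and the TATA box TATAAA stood at -31 to -26 in Muc1 (12.4% of windows). The kappaB-like motif GGGANNNNCC (17.6% of windows) and the STAT-like motif TTCNNNGAA (7.02%) had no match in any of the 6, and Padi1 had no match to any motif searched. These matches describe letters in a short window and were not tested as binding sites.

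All 6 genes differed between the stages. In the F test over the 4 stages, 6 of 6 passed an adjusted p under 0.05 (edgeR quasi-likelihood, adjusted by Benjamini-Hochberg over 12052 genes), where 23.2% of all tested genes did. The adjusted p was 8.23e-06 for Padi1, the gene ranked 4 by p in that test, 0.000649 for Lcn2, 0.000760 for Muc1, 0.00238 for Slpi, 0.00684 for Ltf and 0.0107 for Wfdc2. The mean was highest in estrus for 5 genes and in proestrus for Wfdc2, whose proestrus and estrus means were close. The mean was lowest in diestrus for 5 genes and in proestrus for Slpi. The ratio of the highest to the lowest stage mean ran from 2.00 for Wfdc2 to 146 for Lcn2. The labels do not say that replicates were handled separately after dissection, so the p-values measure the spread between these samples. In whole tissue, fewer cells of a type and less RNA per cell cannot be told apart.

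**Figure D1:**
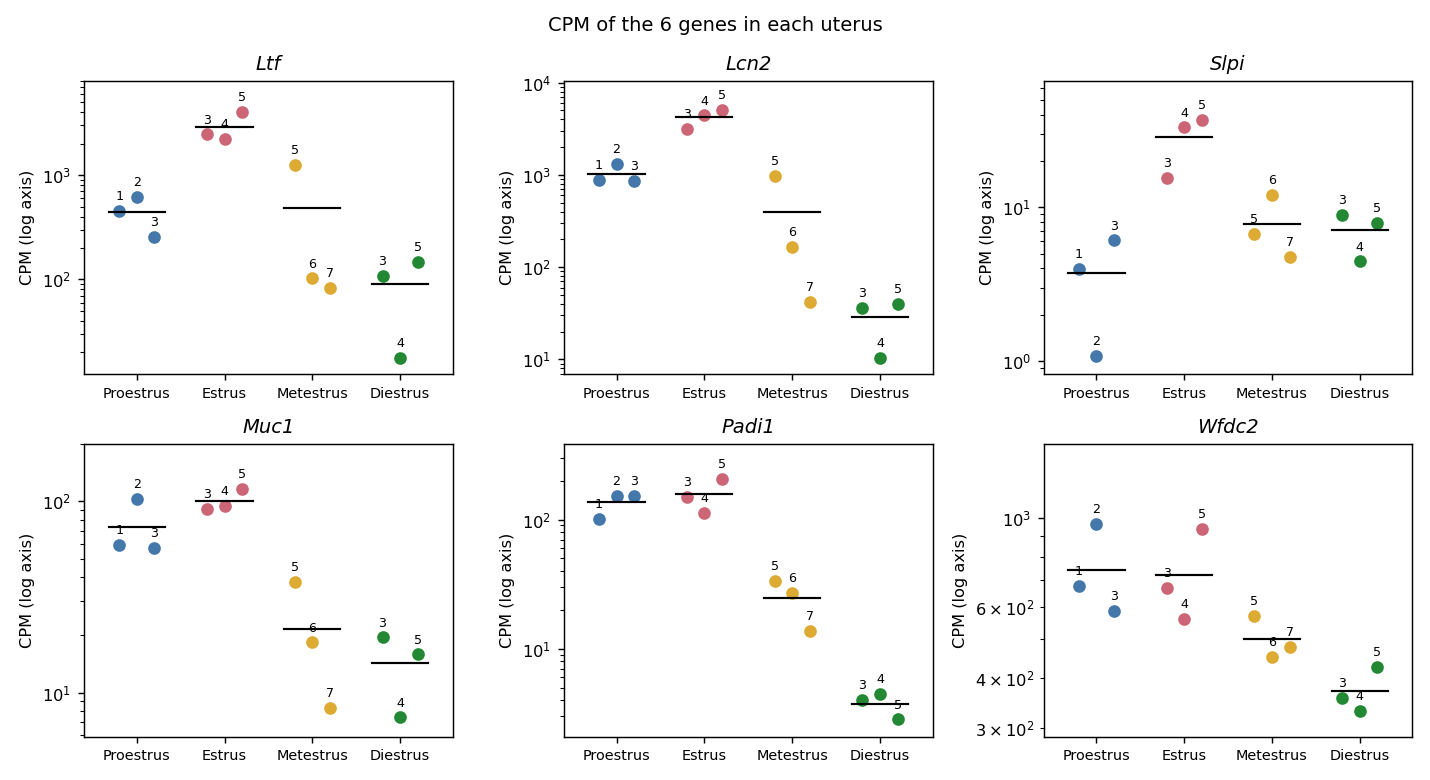
CPM of each gene (log axis) in each of the 12 uteri by stage; points are uteri with their replicate number and the horizontal line is the stage mean. The 3 estrus uteri lie above all 3 diestrus uteri for each gene, and metestrus replicate 5 lies far above the other metestrus uteri for Ltf and Lcn2.

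Ltf, the iron-binding member, was at 452, 619.9 and 254 CPM in proestrus replicates 1, 2 and 3 and at 2463, 2234 and 4069.7 CPM in estrus replicates 3, 4 and 5. In metestrus it was at 1259 CPM in replicate 5 and at 102 and 82.9 CPM in replicates 6 and 7, and in diestrus at 109, 17.8 and 147 CPM. Estrus therefore stood above all other uteri, and metestrus replicate 5 stood above all proestrus uteri while replicates 6 and 7 lay within the range of diestrus. The stage means were 442 ± 183, 2922 ± 1000.3, 481 ± 673 and 91.2 ± 66.4 CPM in the order proestrus, estrus, metestrus and diestrus (SD, n = 3 each). Diestrus was lower than estrus by a log2 fold change of -5.01, with a standard error (SE, given with all log2 fold changes) of 1.00 (adjusted p = 0.00307, edgeR quasi-likelihood test). No other pair of stages passed for Ltf in the fit to all 12 uteri. Neighbours in the order of the means, namely estrus, metestrus, proestrus and diestrus, were thus not separated by that fit.

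The difference of estrus minus proestrus lay at the threshold for Ltf. It was 2.72 ± 0.89 on the log2 scale with an adjusted p of 0.0502 (edgeR quasi-likelihood test), and all 3 estrus uteri were above all 3 proestrus uteri. The adjusted p was 5.17e-05 when the 6 uteri of these stages were fitted alone and 0.00272 without metestrus replicate 5, and over the alternatives other than leaving out 1 uterus it ran from 5.17e-05 to 0.102. The spread within metestrus enters this test because the 4 stages share 1 estimate of the spread for each gene. Metestrus minus estrus was -2.60 ± 0.89 (adjusted p = 0.0919) and became -4.98 (adjusted p = 0.00060) without metestrus replicate 5. Proestrus minus diestrus was 2.28 ± 0.90 (adjusted p = 0.147), and 2.28 with an adjusted p of 0.0122 without that replicate.

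Lcn2 had the widest range of the 6. It was at 889.9, 1328 and 853 CPM in proestrus, at 3159, 4406 and 5089 CPM in estrus replicates 3, 4 and 5, at 976, 167 and 42.3 CPM in metestrus replicates 5, 6 and 7, and at 36.4, 10.4 and 40.2 CPM in diestrus. All 3 proestrus uteri were below all estrus uteri and above all diestrus uteri, and the metestrus uteri ran from the level of proestrus to just above that of diestrus. The means were 1024 ± 264, 4218 ± 979, 395 ± 507 and 29.0 ± 16.2 CPM (SD, n = 3 each). Single uteri differed by up to 490.2-fold, between estrus replicate 5 and diestrus replicate 4.

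Lcn2 fell from estrus to metestrus by 3.41 ± 0.79 on the log2 scale (adjusted p = 0.0212, edgeR quasi-likelihood test) and was lower in diestrus than in estrus by a log2 fold change of -7.19 ± 0.96 (adjusted p = 0.000236). It was higher in proestrus than in diestrus by 5.15 ± 0.89 (adjusted p = 0.00304). Estrus minus proestrus, at 2.04 ± 0.75, had an adjusted p of 0.0772. That adjusted p was 2.14e-05 when only these stages were fitted and at most 0.139 over the alternatives other than leaving out 1 uterus. The metestrus to diestrus step of -3.78 ± 0.85 did not pass either (adjusted p = 0.0857), although no diestrus uterus reached the lowest metestrus value. It did pass with no filter (4.90e-05), with DESeq2 (0.00761) and without metestrus replicate 6 (0.0371) or 7 (0.00987). Metestrus and proestrus differed by -1.37 ± 0.74 (adjusted p = 0.316), and by -3.29 without metestrus replicate 5 (adjusted p = 0.00655). In the order estrus, proestrus, metestrus and diestrus, no neighbouring stages of Lcn2 were therefore separated by the main fit to all 12 uteri, while single alternatives did separate them. The call against metestrus was lost without estrus replicate 4 (adjusted p = 0.0552), estrus replicate 5 (0.0682) or metestrus replicate 6 (0.0745), in a range of 0.000170 to 0.0745 over the 12 uteri left out in turn, and with counts scaled from TPM (0.0579) and a fit to these stages alone (0.0889).

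Slpi, the protease inhibitor, was covered by few counts and had an order of stages unlike that of the other 5 genes. It was at 3.99, 1.08 and 6.09 CPM in proestrus, 15.5, 33.2 and 37.1 CPM in estrus, 6.74, 12.0 and 4.77 CPM in metestrus and 8.97, 4.45 and 7.92 CPM in diestrus. Estrus lay above every other uterus, and the other 3 stages overlapped. Its level in proestrus replicate 2 rested on 2 counts, and 3 counts there correspond to 1.62 CPM. The means were 3.72 ± 2.52, 28.6 ± 11.5, 7.84 ± 3.73 and 7.12 ± 2.37 CPM (SD, n = 3 each).

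Slpi was the only one of the 6 that passed between proestrus and estrus, where it rose by 2.92 ± 0.50 on the log2 scale (adjusted p = 0.00215, edgeR quasi-likelihood test). It fell from estrus to metestrus by 1.88 ± 0.45 (adjusted p = 0.0246) and was lower in diestrus than in estrus by a log2 fold change of -2.01 ± 0.45 (adjusted p = 0.00630). In contrast to the other 5 genes its proestrus mean lay below its diestrus mean, at -0.91 ± 0.57 (95% interval -2.12 to 0.31, adjusted p = 0.388), a difference within the spread. The metestrus call was lost without estrus replicate 4 (adjusted p = 0.0896), estrus replicate 5 (0.112) or metestrus replicate 7 (0.0623), in a range of 0.0195 to 0.112 over the uteri left out in turn, and with a fit to these stages alone (0.0585).

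Muc1, the membrane mucin, was at 59.3, 103.5 and 57.3 CPM in proestrus, 91.6, 94.4 and 116 CPM in estrus, 37.9, 18.3 and 8.35 CPM in metestrus and 19.4, 7.41 and 15.8 CPM in diestrus. Proestrus and estrus overlapped, as did metestrus and diestrus, and every uterus of the first pair of stages lay above every uterus of the second. The means were 73.4 ± 26.1, 101 ± 13.6, 21.5 ± 15.0 and 14.2 ± 6.17 CPM (SD, n = 3 each). Muc1 fell from estrus to metestrus by 2.20 ± 0.40 on the log2 scale (adjusted p = 0.00594, edgeR quasi-likelihood test) and was higher in proestrus than in diestrus by 2.37 ± 0.42 (adjusted p = 0.00364). Estrus minus proestrus was 0.46 ± 0.36 with a 95% interval of -0.31 to 1.23 (adjusted p = 0.419). Metestrus was below proestrus by a log2 fold change of -1.74 ± 0.40 (adjusted p = 0.0302), a call that did not hold without proestrus replicate 1, 2 or 3 or metestrus replicate 7, with counts scaled from TPM or with a fit to these stages alone (adjusted p up to 0.132).

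Padi1, the deiminase, had the smallest p of the 6 in the F test. It was at 102, 153 and 153 CPM in proestrus, 150.3, 113 and 208 CPM in estrus, 33.7, 27.1 and 13.7 CPM in metestrus and 3.99, 4.45 and 2.83 CPM in diestrus. Proestrus and estrus overlapped, all metestrus uteri lay below both, and all diestrus uteri lay below metestrus. Diestrus stood close to the level of 3 counts. The proestrus minus diestrus difference of 5.14 ± 0.38 on the log2 scale had the smallest p of all 12052 genes in that comparison (adjusted p = 2.67e-05, edgeR quasi-likelihood test). Padi1 fell by 2.65 ± 0.29 from estrus to metestrus (adjusted p = 0.000281), and estrus and proestrus differed by 0.21 ± 0.26 with a 95% interval of -0.34 to 0.77 (adjusted p = 0.621).

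Padi1 was also the only one of the 6 that passed between metestrus and diestrus, with a further fall of 2.70 ± 0.42 on the log2 scale (adjusted p = 0.0194, edgeR quasi-likelihood test). That call was lost without metestrus replicate 5 (adjusted p = 0.0590) or without diestrus replicate 3, 4 or 5 (0.0618, 0.0829 and 0.0848), and the size of the fall then lay between 2.40 and 2.99 over all uteri left out in turn. It was lost with limma-voom, with counts scaled from TPM and with the 6 uteri of these stages fitted alone, with adjusted p-values of 0.197, 0.0906 and 0.226.

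Wfdc2 varied least. It was at 678, 964 and 586 CPM in proestrus, 667, 559 and 937 CPM in estrus, 568, 451 and 478 CPM in metestrus and 356, 331 and 425 CPM in diestrus. Diestrus lay below every other uterus, and the other 3 stages formed a band in which proestrus and metestrus did not overlap. The means were 743 ± 197, 721 ± 195, 499 ± 61.6 and 371 ± 48.6 CPM (SD, n = 3 each). Proestrus was above diestrus by 1.00 ± 0.22 on the log2 scale (adjusted p = 0.0107, edgeR quasi-likelihood test) and diestrus was below estrus by a log2 fold change of -0.96 ± 0.22 (adjusted p = 0.00628). Estrus and proestrus differed by -0.04 ± 0.21 (95% interval -0.50 to 0.42, adjusted p = 0.923). Without proestrus replicate 2 or diestrus replicate 4 the proestrus to diestrus call was lost, with adjusted p-values of 0.0636 and 0.0538 in a range of 0.00724 to 0.0636.

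Read by step of the cycle, the 6 genes passed in different numbers. From proestrus to estrus 1 of 6 passed, against 17.1% of all tested genes in either direction and 9.67% higher, and 3 of 6 had groups that did not overlap (Ltf, Lcn2 and Slpi, all higher in estrus), against 20.9% of all tested genes with every estrus uterus above every proestrus uterus. From estrus to metestrus 4 of 6 fell, namely Lcn2, Slpi, Muc1 and Padi1, against 7.56% of all genes in either direction and 4.73% lower. From metestrus to diestrus 1 of 6 fell, against 0.224% of all genes in either direction and 0.0913% lower. Proestrus was higher than diestrus for 4 of 6, namely Lcn2, Muc1, Padi1 and Wfdc2, against 4.62% of all genes higher and 8.53% in either direction. Metestrus was lower than proestrus for Muc1 and Padi1, against 1.82% of all genes lower and 4.31% in either direction. Diestrus was lower than estrus for 6 of 6, against 22.8% of all genes in either direction and 13.0% lower, and no diestrus uterus reached the lowest estrus uterus for any of them, as was so for 22.4% of all tested genes. The median log2 fold change of the 6 in these comparisons, in the order given, was 1.25, -2.40, -1.51, 2.32, -0.97 and -3.92, while the median over all tested genes stayed within 0.0679 of 0 under every alternative. These comparisons share samples, so they are not independent of each other.

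**Figure D2:**
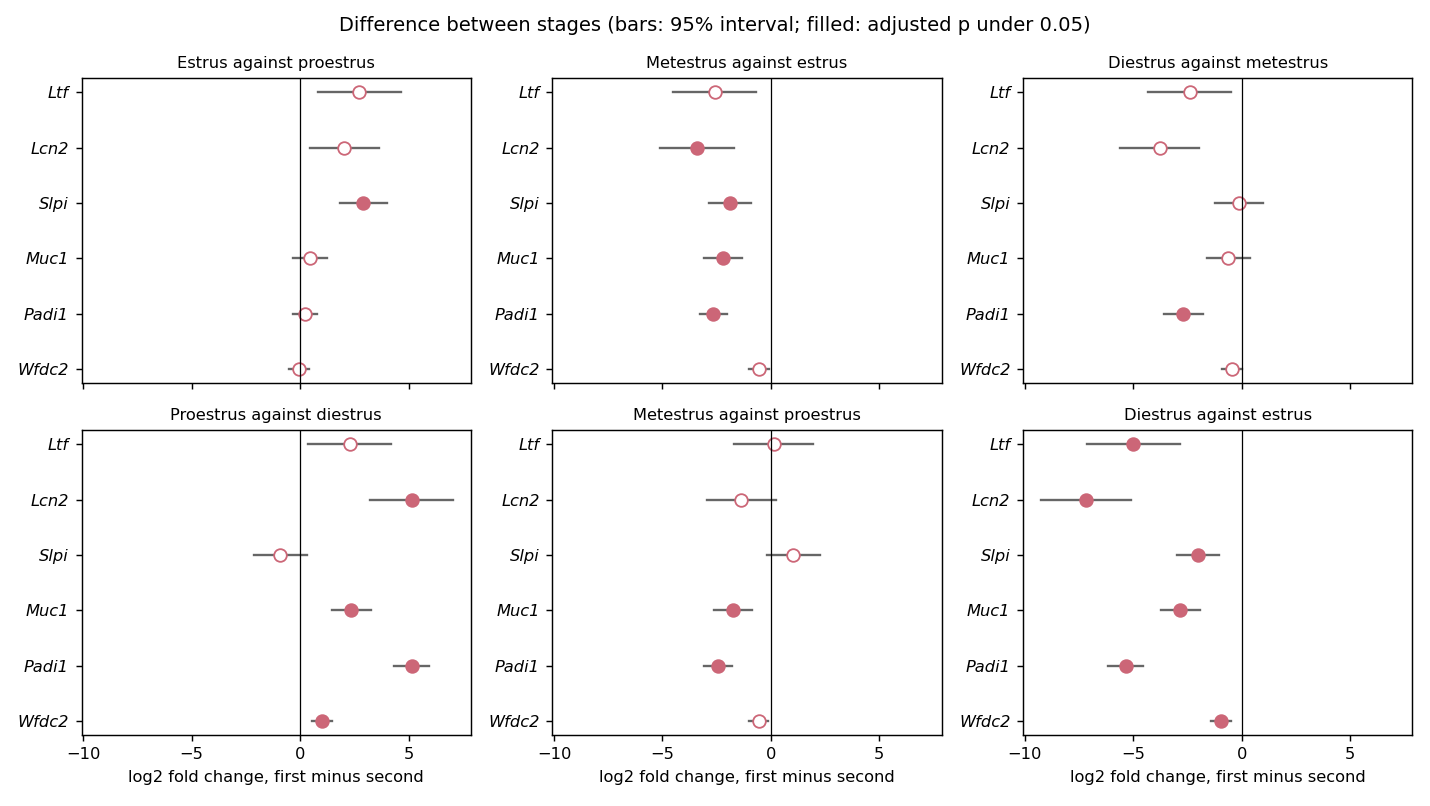
Log2 fold change (x axis, first stage minus second) of each gene in the 6 comparisons of stages, with 95% intervals as bars; filled points have an adjusted p under 0.05. All 6 points are filled for diestrus against estrus, 4 for metestrus against estrus and for proestrus against diestrus, and 1 for estrus against proestrus (Slpi) and diestrus against metestrus (Padi1).

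Levels of different genes were set side by side on the authors' TPM scale, which divides by transcript length. Because the reads come from 3' ends, that division may not suit these libraries, and an order of genes on this scale is tentative. On that scale Lcn2 was the most abundant of the 6 in estrus, with a mean of 6065 ± 1300.2 TPM (SD, n = 3), and ranked between 12 and 32 among the 35896 genes in the 3 uteri. In diestrus its mean was 42.6 TPM and its rank lay between 1705 and 4738. Ltf ranked between 40 and 82 in estrus and between 798 and 5243 in diestrus. Wfdc2 ranked between 46 and 160 in all 12 uteri, so that in diestrus it was the most abundant of the 6 at 1374 ± 262 TPM. Slpi, Muc1 and Padi1 were far lower in estrus, at 57.8 ± 10.1, 49.4 ± 5.20 and 44.8 ± 12.4 TPM. Without division by length their order in estrus was the reverse, at 28.6, 101 and 157 CPM, so none is placed above another. Padi1 fell to 1.08 ± 0.188 TPM in diestrus, with a rank between 12629 and 13533.

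Of the 6 genes, 3 were counted mainly from 1 transcript, but Slpi was divided, with Slpi-201 holding 74.3% of its counts (33.9% to 100% by uterus) and Slpi-202 holding 25.7%. Lcn2-201 held 97.7% of the Lcn2 counts over the 12 uteri, Muc1-201 held 99.9% and Padi1-201 all of them. Ltf was split between Ltf-201 (78.3%) and Ltf-205 (21.5%), and Wfdc2 between Wfdc2-202 (62.9%) and Wfdc2-201 (36.5%). Within single uteri the share of Wfdc2-202 ranged from 57.6% to 67.5%. Reads from the 3' end separate isoforms poorly, so these shares are estimates of the deposited quantification.

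The same uterus was often the highest or lowest of its stage for several genes. Estrus replicate 5 was the highest estrus uterus for 6 of 6 genes. Metestrus replicate 5 was the highest metestrus uterus for 5 (all but Slpi), and metestrus replicate 7 the lowest for 5 (all but Wfdc2). Diestrus replicate 4 was the lowest diestrus uterus for 5 (all but Padi1). Over the 12 uteri the Pearson correlation of log2 CPM was 0.943 between Ltf and Lcn2, 0.955 between Lcn2 and Muc1 and 0.896 between Ltf and Muc1. After the stage mean was removed from each value these were 0.911, 0.951 and 0.893. The SD of log2 CPM of these genes was largest in metestrus, at 2.17 for Ltf, 2.25 for Lcn2 and 1.02 for Muc1. Padi1 correlated with Lcn2 at 0.930 and with Muc1 at 0.896 over the 12 uteri, and at 0.562 and 0.579 without the stage means. Slpi correlated with the other 5 at 0.05 to 0.52. These values describe 12 libraries that share 4 stages and, for each pair of genes, the same library.

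**Figure D3:**
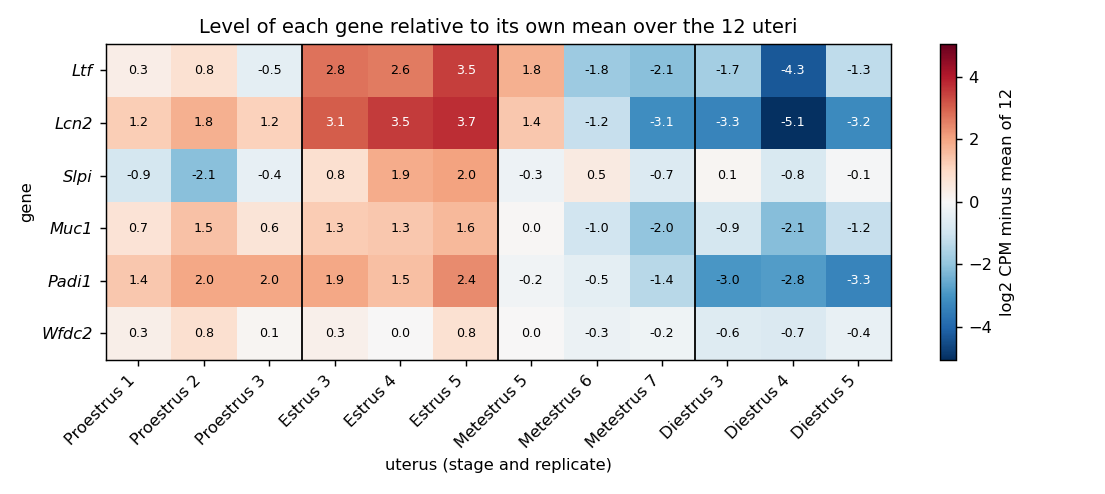
Log2 CPM of each gene (rows) minus its own mean over the 12 uteri, by uterus (columns); red is above and blue below that mean, and vertical lines divide the stages. Ltf, Lcn2 and Muc1 are higher in metestrus replicate 5 than in replicates 6 and 7, and the Slpi row is low in proestrus, where the other 5 rows are mostly above their means.

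Markers of cell types were measured in the same uteri. The 13 uterine epithelium markers, all tested and all passing the F test, summed to 2094 to 2788 CPM in proestrus, 1991 to 2485 in estrus, 765 to 1433 in metestrus and 759 to 939 in diestrus. In diestrus against estrus 12 of the 13 were lower, against 13.0% of all tested genes. Within metestrus the sum was 1433 CPM in replicate 5, 1086 in replicate 6 and 765 in replicate 7. That is the order of Ltf, Lcn2, Muc1 and Padi1 in these uteri. The stromal fibroblast markers summed to 6969 CPM in replicate 5 against 15262 and 13326 CPM. They differed unevenly, with 1723, 4756 and 3393 counts of Col1a1 but 4974, 4650 and 6124 of Dcn in replicates 5, 6 and 7. Of the lists examined further on, the estrogen-responsive genes other than the 6 summed to 4640 CPM in replicate 5 against 2640 and 2220 CPM. That list was uneven as well. In replicates 5, 6 and 7 C3 had 3650, 255 and 371 counts and Sprr2f 1230, 255 and 48. Pgr had 330, 448 and 224 counts and Inhbb 53, 214 and 39, so the sum does not describe every gene of the list. Other secreted defence proteins summed to 2716 CPM in replicate 5 against 1240 and 1926 CPM, with 1636, 285 and 648 counts of Rnase4 but 363, 207 and 508 of Lyz2. The 7 uterine gland markers, of which 4 were tested, summed to 1650.4 to 1704 CPM in proestrus, 1109 to 1867 in estrus, 1407 to 2653 in metestrus and 1368 to 1813 in diestrus. Calb1 held most of that sum in every uterus. Of the 4 tested, 3 were lower in proestrus than in diestrus, with a median log2 fold change of -1.82 for the 4. In diestrus against estrus 2 of the 4 were higher, with a median of 1.54. No gland marker passed the other way in either comparison. The highest sum was in metestrus replicate 7, where the untested Prss29 and Spink1 had 498 and 803 counts, against at most 4 and 124 elsewhere. The part of the epithelial and glandular shares in the changes of the 6 genes was not tested. The levels were also divided by the epithelial sum of the same uterus, a description added after the data were seen. The ratio of the highest stage, estrus, to the lowest, diestrus, was then 54.6 for Lcn2, 15.1 for Padi1, 12.2 for Ltf and 2.64 for Muc1. For Slpi the ratio of highest to lowest stage was 7.14, from estrus to proestrus. Its estrus and diestrus uteri overlapped after the division, which they did not in CPM. For Wfdc2 the ratio of highest to lowest stage was 1.51, with metestrus highest and proestrus lowest, so that the order of its stages changed. The markers in the epithelial sum did not move alike. Krt7 had 709 to 1231 counts in proestrus and 54 to 104 in diestrus, while Cldn3 had 107 to 179 and 217 to 374. The ratios therefore depend on the markers summed.

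Ltf and Lcn2 are also stored in the granules of neutrophils. The other 16 neutrophil markers summed to 15.1 to 39.1 CPM in proestrus, 42.7 to 102 in estrus, 13.7 to 31.6 in metestrus and 18.3 to 74.7 in diestrus. Of these 16, 5 were tested and 2 passed the F test, Mmp9 and S100a9, where 23.2% of all tested genes passed. The median log2 fold change of the 5 was 2.39 from proestrus to estrus, -2.06 from estrus to metestrus and 1.11 from metestrus to diestrus. The tested Retnlg had 2, 7 and 29 counts in proestrus and 14, 28 and 55 in estrus. It had 5, 23 and 5 counts in metestrus and 25, 11 and 44 in diestrus. S100a8 had at most 34 counts and Cxcr2 at most 23 in any uterus. Mmp9 rose from 2.47 ± 0.961 to 13.4 ± 0.980 CPM between proestrus and estrus. The neutrophil granule genes Elane, Ctsg and Ngp had at most 2 counts in any uterus, Mmp8 at most 4, Mpo at most 5 and Camp at most 7. Prtn3, another granule gene, had 10 counts in estrus replicate 5, 8 in metestrus replicate 5 and at most 6 elsewhere. S100a9 was at 4.95, 26.3 and 0.916 CPM in estrus and at 12.5, 1.48 and 18.7 CPM in diestrus. Markers of stratified squamous epithelium, which lines the vagina and cervix, summed to at most 29.0 CPM in any uterus, with Dsg1a at 0 in all 12. Macrophage markers were higher in estrus, with 8 of 8 passing against proestrus, where 9.67% of all tested genes were higher. They summed to 252 to 322 CPM in proestrus and 667 to 728 CPM in estrus. Their part in the results was not tested.

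**Figure D4:**
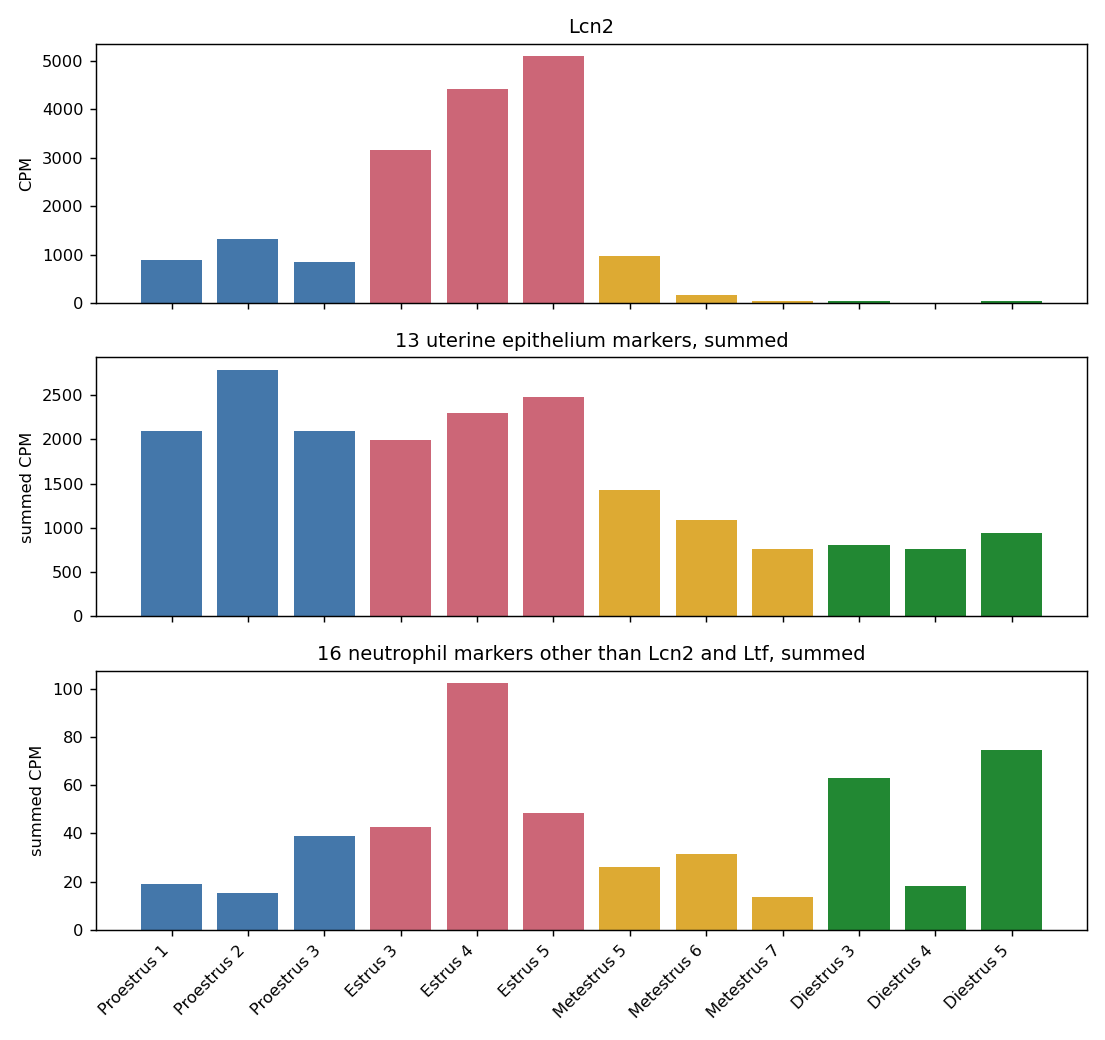
CPM of Lcn2 (top), summed CPM of 13 uterine epithelium markers (middle) and of 16 neutrophil markers other than Lcn2 and Ltf (bottom) in each uterus, as bars from 0. The epithelial sum lies between 1991 and 2788 CPM in the proestrus and estrus uteri and between 759 and 1433 CPM in the others, and the neutrophil sum is highest in estrus replicate 4.

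Relatives of the 6 genes followed them in part. Of 13 mucin genes only Muc4 and Muc20 were tested beside Muc1, and both passed the F test. Muc4, a membrane mucin like Muc1, was at 36.8 ± 14.2, 183 ± 27.2, 13.5 ± 12.3 and 1.40 ± 0.794 CPM in cycle order (SD, n = 3 each), and it rose from proestrus to estrus by 2.31 on the log2 scale (adjusted p = 0.00181, edgeR quasi-likelihood test), the step at which Muc1 did not pass. Muc20 was at 10.5, 25.7, 2.35 and 0.665 CPM on average and did not pass between proestrus and estrus. Both were lower in diestrus than in estrus. Among the 5 deiminases, Padi2 and Padi4 were tested beside Padi1 and both passed the F test. Each had its highest mean in proestrus, but neither passed between proestrus and estrus. Padi2 stood at 133 ± 15.6, 74.4 ± 24.8, 24.4 ± 12.4 and 14.9 ± 6.90 CPM, and Padi4 at 7.13, 3.78, 2.02 and 0.496 CPM.

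The whey acidic protein family was divided. Of its 19 genes, 4 were tested beside Slpi and Wfdc2, and Wfdc1 and Wfdc18 passed the F test. Wfdc1 ran opposite to Wfdc2, at 27.2 ± 4.36, 20.7 ± 0.595, 56.8 ± 22.7 and 166 ± 17.9 CPM, and rose at both steps from estrus to diestrus (log2 fold changes 1.45 and 1.55, adjusted p = 0.00388 and 0.0111, edgeR quasi-likelihood test). The second of these calls was lost with counts scaled from TPM (adjusted p = 0.0712), a fit to these stages alone (0.226) or without diestrus replicate 4 (0.0511). Wfdc18 had its highest mean in estrus, like Slpi, at 38.3 ± 40.1 CPM against 1.43 ± 1.12 in proestrus, but estrus replicate 4 alone held 83.5 CPM, and the F test call was lost without it (adjusted p = 0.0632) and with limma-voom (0.276). Among 18 lipocalin genes 2 were tested beside Lcn2. Of these Apod passed the F test, except with counts scaled from TPM (adjusted p = 0.0799), and had its highest mean in metestrus, 28.0 ± 11.1 CPM.

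**Figure D5:**
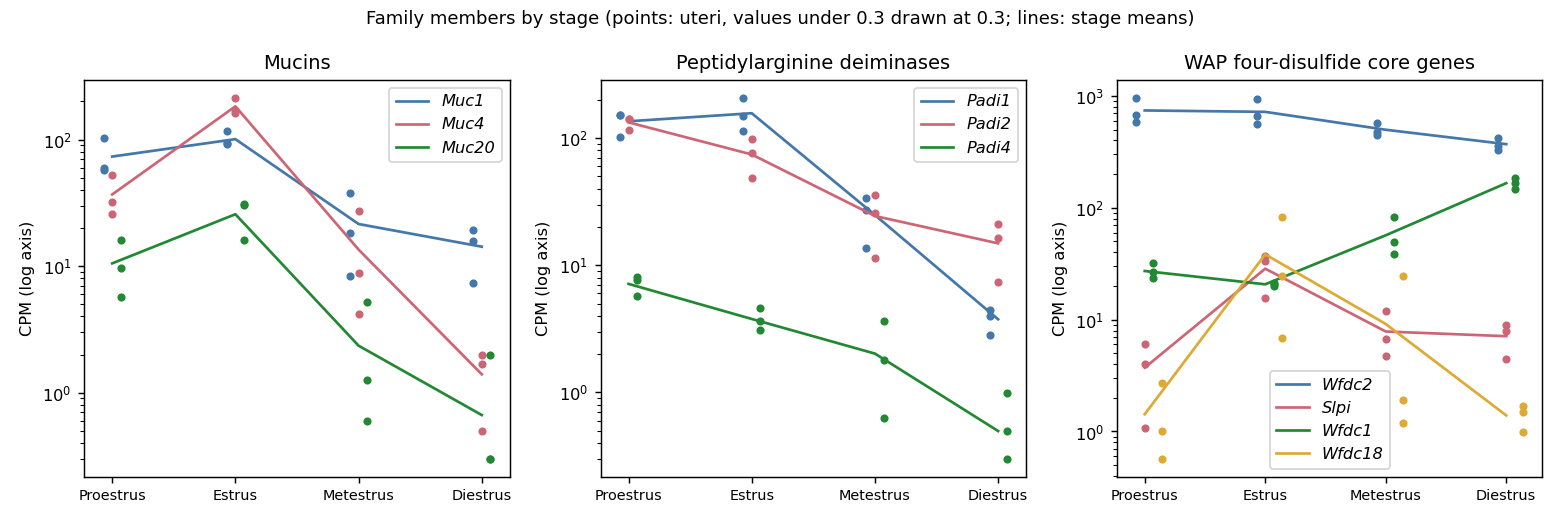
CPM (log axis) of Muc1, Padi1, Wfdc2 and Slpi with the relatives that passed the F test, by stage; points are uteri, lines join stage means, and values under 0.3 CPM are drawn at 0.3. Muc4 and Muc20 have their highest mean in estrus, Padi2 and Padi4 have theirs in proestrus, and Wfdc1 has its highest mean in diestrus, where Wfdc2 has its lowest.

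Genes of iron handling, the process in which Ltf and Lcn2 act, were examined as a list of 19. Besides Ltf 12 were tested and 9 passed the F test, where 23.2% of all tested genes did. From proestrus to estrus 5 of the 12 rose, against 9.67% of all tested genes, and none fell (median log2 fold change 0.60, against 0.02 over all genes). Cp, which encodes the iron-oxidising protein ceruloplasmin, stood at 88.4 ± 28.1, 476 ± 47.3, 80.2 ± 37.5 and 38.1 ± 4.89 CPM. Slc40a1, the iron exporter ferroportin, was at 177, 274, 71.1 and 18.2 CPM on average, and Tfrc, the transferrin receptor, at 40.3, 33.7, 13.3 and 13.3 CPM, although Tfrc did not pass when only its protein-coding transcripts were counted (adjusted p = 0.127). Lrp2, an endocytic receptor that takes up lipocalin 2 and lactoferrin among other ligands, ran the other way, at 3.01, 1.36, 8.98 and 38.8 CPM, and was higher in diestrus than in estrus by 4.86 on the log2 scale (adjusted p = 0.000872, edgeR quasi-likelihood test).

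Other secreted defence proteins were examined as a list of 28 genes, of which 16 were tested. The F test was passed by 12 of them, and by 23.2% of all tested genes. From proestrus to estrus 9 of the 16 rose, against 9.67% of all tested genes, and none fell, with a median log2 fold change of 1.72. From estrus to diestrus 8 fell, against 13.0% of all tested genes, and 1 rose. Pigr, the receptor that carries immunoglobulin A across epithelia, rose from 135 ± 40.7 to 921 ± 124 CPM between proestrus and estrus and stood at 148 ± 91.9 and 56.6 ± 24.3 CPM in metestrus and diestrus. Mmp7, a protease of epithelia, rose from 2.16 ± 1.87 to 82.3 ± 4.31 CPM, and Pglyrp1, a peptidoglycan-binding protein, from 97.8 ± 22.3 to 361 ± 67.7 CPM. The rise of Pglyrp1 lost its call in several alternatives, with adjusted p-values up to 0.0862 without proestrus replicate 3. Cst3, a cysteine protease inhibitor, had a flatter course at 239, 539, 481 and 371 CPM. Defb3, Defb4, Bpifa1, Spink5 and Gp2 had no counts in any uterus. Macrophage markers also rose at this step, as given above.

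Genes known to respond to estrogen in the uterus were a list of 36 that includes 4 of the 6 genes. Of the other 27 tested genes 17 passed the F test, where 23.2% of all tested genes did. From proestrus to estrus 4 rose and 8 fell, against 9.67% of all tested genes higher and 17.1% in either direction. Proestrus was higher than diestrus for 11 and lower for none, against 4.62% of all tested genes higher. The median log2 fold changes in these 2 comparisons were 0.17 and 0.76. The 4 with the smallest p were Prom1, which had 32.7 ± 7.94 CPM in proestrus and 193 ± 32.9 in estrus, Cebpb, Klf4 and Cdkn1a. Klf4, a transcription factor, had its highest mean in proestrus, 442 ± 102 CPM, and fell to 227 ± 55.3 CPM in estrus, a call that was lost without proestrus replicate 1 or 2 or estrus replicate 3 or 4 (adjusted p up to 0.0614). Cebpb, also a transcription factor, was at 110.1, 137, 73.5 and 37.6 CPM on average, and Cdkn1a, a cell cycle inhibitor, at 30.9, 57.2, 22.6 and 14.3 CPM.

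The tested genes whose log2 CPM ran most like each of the 6 over the 12 uteri were found by Pearson correlation, as a description. For Lcn2 they were Clca1 (r = 0.991), Muc4 (0.985) and Alcam (0.983), and for Muc1 Bcl9 (0.984), Naip1 (0.980) and Alcam (0.979). For Ltf they were Fam234a (0.978), Cfb (0.970) and Tmem45b (0.969), and for Padi1 Plpp2 (0.984), Car2 (0.973) and Fam213a (0.972). The closest genes to Wfdc2 were Laptm5 (0.937), Ptpru (0.930) and Kyat1 (0.929). Slpi had the lowest best values, with Tpp1 (0.910), Col4a1 (0.878) and Tmem192 (0.876). Clca1, the nearest to Lcn2, was at 550.1 ± 254, 1984 ± 496, 186 ± 260.0 and 17.2 ± 12.4 CPM in cycle order (SD, n = 3 each), and Cfb, a complement factor, at 93.0, 664, 89.1 and 17.9 CPM. All of these correlations share the 12 libraries and the 4 stages.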

How the data were processed

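Whole uteri were measured by 3' TagSeq, in 3 samples for each of 4 stages. The authors deposited 1 table per sample holding estimated counts, TPM, transcript length and effective length (in bases) for 119414 transcripts, per the file headers. The deposited estimated counts were unscaled, and 66.9% of those above 0 were not whole. The authors' TPM divides them by effective length and scales each sample to the same total. FastQC, kallisto and DESeq2 are named in the submitters' processing notes; their options, the transcript set and the use of strand were not given in the sources used here.

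Transcripts were matched without version to GENCODE M21 (GRCm38), with 116640 (97.7%) matched; the rest held 0.619% to 0.774% of counts and were left out. Counts were summed per gene and rounded, giving 1652841 to 2200563 counts per sample before matching. In CPM, the 3 counts that a gene without reads could still have had came to 1.37 to 1.89, which covers counting error only, since no molecular identifiers were described.

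filterByExpr left 12052 genes. edgeR 4.0.16 (R 4.3.3) with TMM factors (0.908 to 1.05) fitted a quasi-likelihood model with 1 coefficient per stage to all 12 samples (biological coefficient of variation 20.6%). An F test and 6 two-sided contrasts were adjusted by Benjamini-Hochberg over all genes tested, and an adjusted p under 0.05 was counted as a difference. The fit was tested on simulated data. Alternatives were other scalings, no filter, DESeq2 1.42.0, limma-voom 3.58.1, TPM-scaled counts, protein-coding transcripts, fits to 2 stages, a replicate block and each library left out in turn. Named genes were the 6 genes, the 3 most correlated with each (log2 CPM, prior count of 2), and up to 4 per list with the smallest F test p; others named were chosen after their values were seen. The members and lists were chosen with earlier results of these data known.

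Replicates of a stage differed by more than sampling noise in every pair (chi-square per degree of freedom 3.05 to 14.0). Motifs were searched in the 250 bases before RefSeq starts.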

Additional observations from a re-analysis of the deposited data

How the results depend on the processing

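The F test and the comparison of diestrus with estrus called 6 of 6 genes under every alternative. The other counts of the 6 genes called moved. From proestrus to estrus the count of 1 became 3 with no filter and with a fit to the 2 stages, 2 with limma-voom, and 1 to 3 with 1 uterus left out. From estrus to metestrus 4 became 2 with the fit to the 2 stages, and 2 to 5 with 1 uterus left out. Ltf also passed at this step with no filter and with limma-voom, and Lcn2 did not pass with counts scaled from TPM. From metestrus to diestrus 1 became 3 with no filter, 2 with DESeq2, and 0 with limma-voom, counts scaled from TPM and the fit to the 2 stages, and 0 to 2. For metestrus against proestrus 2 became 1 with counts scaled from TPM and with the fit to the 2 stages, and 1 to 4. For proestrus against diestrus Ltf also passed with no filter and with the fit to the 2 stages, and the range with 1 uterus left out was 3 to 5. Without metestrus replicate 5 the 4 steps in cycle order called 3, 5, 0 and 5 genes, and metestrus against proestrus 4. Some differences changed sign. With 1 uterus left out, estrus minus proestrus ran from -0.29 to 0.19 for Wfdc2 and from -0.059 (without estrus replicate 5) to 0.37 for Padi1. Diestrus minus metestrus ran from -0.38 to 0.29 for Slpi and from -1.01 to 0.10 for Muc1, and Slpi was at 0.0556 with counts scaled from TPM. Metestrus minus proestrus ran from -2.26 (adjusted p = 0.0459, without metestrus replicate 5) to 0.64 for Ltf, and was -0.91 with limma-voom; the cause was not tested. Of 834 values of the 6 genes under alternatives, 776 kept direction and side of the threshold, 24 lost and 23 gained a call, and 11 reversed. Of 1628 such values of the named list genes, 129 lost a call and none reversed. Over all genes the count in diestrus against metestrus ran from 0 to 256 (27 as reported), in metestrus against proestrus from 42 to 1080 (519), and in metestrus against estrus from 299 to 1364 (911). Estrus and diestrus share replicate numbers 3, 4 and 5, and the labels do not say what a number means. Deviations from the stage mean correlated at -0.043 to 0.013 between uteri with the same number. With 3 uteri per stage these values cannot show whether the samples were paired, and numbers shared by other stages were not examined. With the replicate block the 6 genes stayed called in diestrus against estrus. In all, 2935 genes were then called, against 3242 without the block in the same uteri. Depth limits Slpi most, with 2 to 81 counts per uterus.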
